A study of Rattus norvegicus with 6 samples.

Results

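Transcript levels of 38 genes, of 18166 genes that could be named and tested, were compared between basal cells and the remaining, non-basal cells of the rat epididymis. The genes were all those on the array whose symbol begins with Slc4a, Slc8a, Slc9a, Slc12a or Slc26a and a number, the names of 5 families of ion transporters. They comprised 10 Slc4 genes, 11 Slc26 genes, 7 Slc12 genes, 6 Slc9 genes and 3 Slc8 genes. The remaining gene, Slc4a1ap, matched by name but encodes an adaptor protein that binds a transporter. The name of the group, bicarbonate, proton and chloride transporters, fits 4 of the 5 families, since Slc8 proteins exchange sodium for calcium. Related exchangers with other kinds of symbol, such as Slc8b1 and Slc9b2, were counted among the partner genes described further on.

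Both fractions came from epididymides of Sprague-Dawley rats aged 48 days, an age at which the rat is not yet fully mature. The cells were divided magnetically into basal and non-basal fractions, and RNA of each was measured on 3 whole-transcript arrays (Affymetrix RaGene 2.0 ST). The labels name 3 rats but do not tie an array to a rat, nor do they name the surface molecule of the separation. Every p-value below is therefore set against the spread of these arrays alone, and that spread may be technical.

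The epididymis is the duct in which sperm mature, and its epithelium keeps the luminal fluid acidic and poor in bicarbonate, which holds sperm quiescent. Principal cells take up sodium and bicarbonate through sodium-proton exchangers (Slc9) and bicarbonate carriers (Slc4), while clear and narrow cells pump protons into the lumen. Slc26 proteins carry chloride, bicarbonate or sulfate, often beside the chloride channel CFTR. Slc12 proteins move chloride together with sodium or potassium and set cell volume and the chloride content of the cell. Basal cells lie beneath these cells on the basement membrane and mostly do not reach the lumen.

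The labels were checked against marker lists. Of 16 measured epithelial basal cell markers, 15 were higher in the basal fraction and 1, Ngfr, was lower. The non-basal fraction was a mixture: 12 of 12 fibroblast markers, 9 of 10 smooth muscle and pericyte markers, 9 of 10 endothelial markers and 8 of 13 lymphocyte markers were lower in the basal fraction. Of 16 principal cell markers 2 were lower, and of 12 narrow and clear cell markers 1, Car12, was higher. Car12, Car2 and Bsnd of that list are also among the partner genes. The other 14 principal cell and 11 narrow and clear cell markers did not pass. Some principal cell markers had high means in both fractions, such as Lcn5 (13.53 basal, 13.85 non-basal) and Ces5a (12.95 and 13.51). Values of the basal fraction can therefore not be read as those of basal cells alone. In these bulk samples, fewer cells of a type and less RNA per cell cannot be told apart. Over all probe sets, named or not, the array medians were 6.63 to 6.70 on the log2 scale. The named genes were less evenly matched: centring each array on their median moved the median difference over all genes from 0.00343 to 0.102. Basal replicate 3 had the highest basal values of fibroblast, smooth muscle and principal cell markers, and non-basal replicate 1 the lowest non-basal values of fibroblast markers and the highest of narrow and clear cell markers.

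In the basal fraction, 3 of the 38 genes were higher and 3 lower at an adjusted p under 0.05 (limma, Benjamini-Hochberg adjustment over all genes). These 6 genes are 15.8% of the group, beside 14.9% of all genes called, with 7.71% of all genes higher and 7.14% lower. The share is near that of all genes, so the count does not set this group apart. Slc26a9, which was higher, and Slc8a1, which was lower, passed the threshold with a difference of at least 2-fold. They are 5.26% of the group, beside 5.84% of all genes. The other 4, Slc12a4 and Slc4a3 (higher) and Slc26a2 and Slc4a5 (lower), differed by 1.30-fold to 1.47-fold. The 32 remaining genes did not pass, and 23 of the 38 differed by less than 0.2 on the log2 scale (60.5%, beside 56.5% of all genes). The median difference of the group, basal minus non-basal, was -0.06, against 0.00 over all genes. Centring each array on its median raised all genes alike, to a median of 0.036 for the group and 0.102 over all genes, so the group stayed slightly below all genes.

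**Figure D1:**
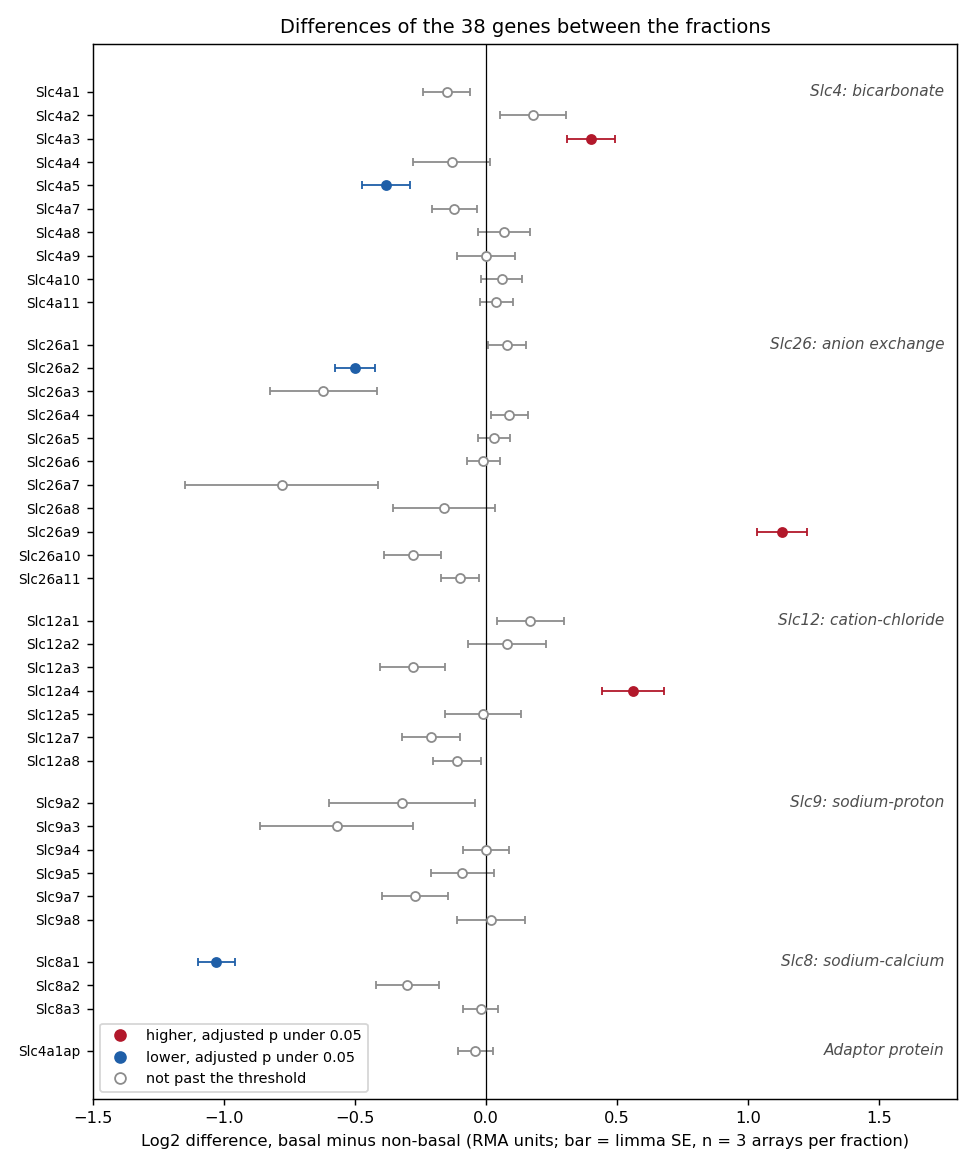
Log2 difference, basal minus non-basal (x axis, RMA units), of each of the 38 genes, grouped by family; points are limma estimates, bars standard errors, n = 3 arrays per fraction. The 3 red points (Slc4a3, Slc26a9, Slc12a4) and the 3 blue points (Slc4a5, Slc26a2, Slc8a1) passed the threshold, and Slc26a9 at 1.13 and Slc8a1 at -1.03 lie farthest from 0.

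In 11 of the 38 genes the fractions did not overlap, which is 28.9%, beside 32.9% of all genes. In 3 of these the basal arrays were above (7.89%, beside 17.6% of all genes) and in 8 below (21.1%, beside 15.3%). The 8 were Slc4a5, Slc26a2, Slc26a3, Slc26a7, Slc26a10, Slc9a3, Slc8a1 and Slc8a2, of which 3 passed the threshold.

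The Slc26 family held the gene with the highest difference of the group, and of its 11 genes 1 was higher, 1 was lower and 9 did not pass. Slc26a9 encodes a chloride transporter with channel-like activity, known from airway and gastric epithelium, where it works beside CFTR. Its log2 values were 7.54, 7.34 and 7.23 in the basal arrays and 6.31, 6.21 and 6.21 in the non-basal arrays. Every basal array was above every non-basal array, and the lowest basal value lay nearly 1 log2 unit above the highest non-basal value. The means of 7.37 ± 0.156 (SD, n = 3) and 6.24 ± 0.0547 (n = 3) differed by 1.13 ± 0.0949 (SE), a 2.19-fold higher level in the basal fraction (limma adjusted p = 0.00237). The call held with each array left out in turn, with adjusted p from 0.00258 to 0.0242. Basal cell markers, which moved the same way, had mean deviations of 0.855 to 1.19 in the basal and -1.49 to -0.852 in the non-basal arrays. Their part in the Slc26a9 difference was not tested.

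Slc26a2 encodes a sulfate transporter needed for the sulfation of cartilage and other proteoglycans. Its values were 9.06, 8.98 and 9.06 in the basal and 9.58, 9.60 and 9.42 in the non-basal arrays. The fractions did not overlap, and the basal arrays lay within 0.1 of each other. The difference was -0.50 ± 0.075 (SE), or 1.41-fold lower in the basal fraction (limma adjusted p = 0.00963). The call held with each array left out, though without basal replicate 2 the adjusted p was at the threshold to 3 digits (0.05). All 12 fibroblast markers were lower, with mean deviations of -2.64 to -0.89 in the basal and 1.26 to 2.27 in the non-basal arrays. Most smooth muscle, endothelial and lymphocyte markers were lower too. The part of any of these cells in this difference was not tested.

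**Figure D2:**
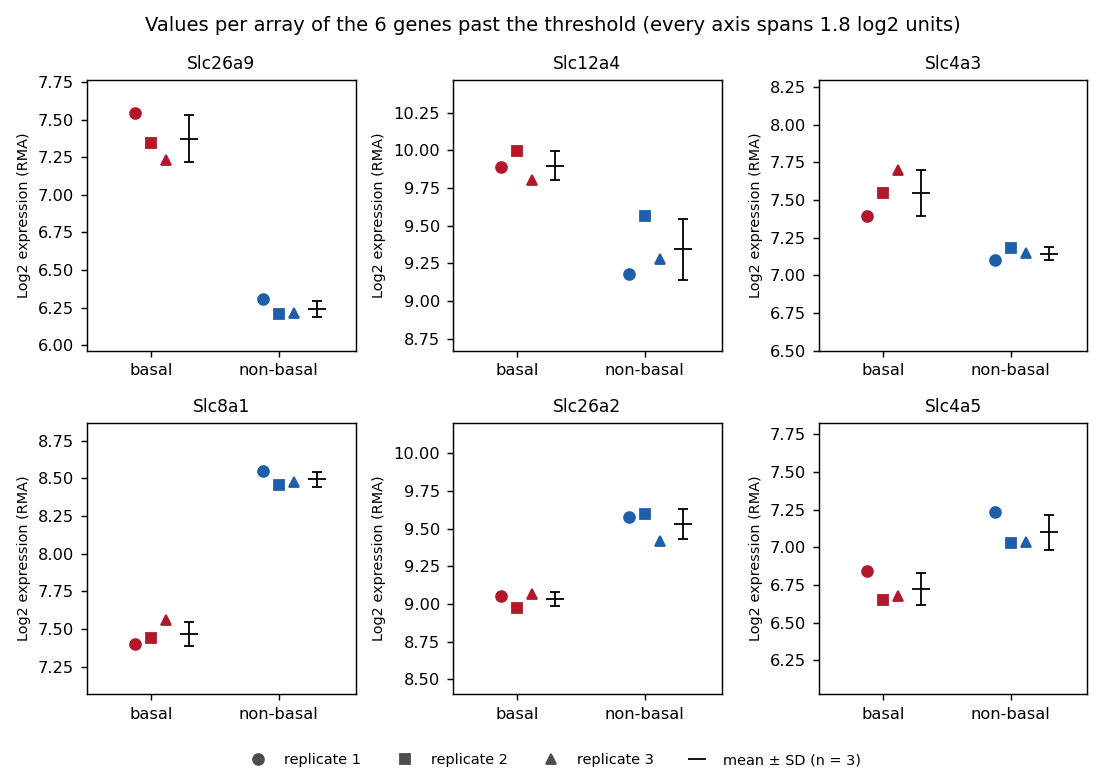
Log2 expression (RMA) in each of the 6 arrays for the 6 genes past the threshold; symbols are replicates, and the black bar is the mean ± SD of 3 arrays. Every y axis spans the same range, so that Slc26a9 and Slc8a1 show the widest gaps, and in none of the 6 genes do the fractions overlap.

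Slc26a3 and Slc26a7 had lower values in the basal fraction without passing the test. Slc26a3, an exchanger of luminal chloride for bicarbonate, had values of 8.48, 8.51 and 8.92 in the basal and 9.64, 9.07 and 9.05 in the non-basal arrays. The fractions did not overlap, but basal replicate 3 came close to the non-basal arrays. The difference was -0.62 ± 0.203 (SE; 95% interval -1.11 to -0.12; limma adjusted p = 0.103). It did not pass with any 1 array left out (limma adjusted p from 0.0677 to 0.287). When basal replicate 3 and non-basal replicate 1 were both left out, the difference was -0.57 with an adjusted p of 0.0077. Slc26a7, an anion transporter of kidney and stomach, had basal values of 7.87, 7.81 and 7.74 and non-basal values of 9.47, 8.09 and 8.19. Non-basal replicate 1 stood far above all the others, and the difference of -0.78 ± 0.368 did not pass (adjusted p = 0.219). Without that array the difference was -0.33 and passed (limma adjusted p = 0.0436). It did not pass with any other single array left out (adjusted p up to 0.398). With basal replicate 3 left out beside non-basal replicate 1 it was -0.30 and did not pass (0.0509).

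Slc26a10 had values of 5.86, 5.96 and 6.24 in the basal and 6.25, 6.35 and 6.31 in the non-basal arrays. The fractions were nearly touching, with basal replicate 3 just under non-basal replicate 1. The difference of -0.28 ± 0.11 did not pass (limma adjusted p = 0.153), and without basal replicate 3 it was -0.39 (adjusted p = 0.0223). With any other single array left out it did not pass (up to 0.349). The other 6 genes of the family, Slc26a1, Slc26a4, Slc26a5, Slc26a6, Slc26a8 and Slc26a11, had differences from -0.16 to 0.09. Slc26a6, an apical chloride-bicarbonate exchanger, was at 7.38 ± 0.0628 and 7.40 ± 0.0311, with a 95% interval of the difference of -0.17 to 0.14. Slc26a4, which encodes pendrin, was at 5.41 and 5.32 with an interval of -0.08 to 0.26. Slc26a8, a male germ cell protein, was at 7.28 and 7.44 with an interval of -0.64 to 0.31. Of 13 sperm and testicular germ cell markers 1, Smcp, was lower in the basal fraction and 12 did not pass. Slc26a5, which encodes the hearing protein prestin, had the same deposited value, 5.345, in 5 of the 6 arrays.

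In the Slc4 family 1 gene of 10 was higher and 1 was lower. Slc4a3, which encodes the chloride-bicarbonate exchanger AE3, had values of 7.40, 7.55 and 7.70 in the basal and 7.10, 7.18 and 7.15 in the non-basal arrays. The basal arrays were all above, but were more widely spread than the non-basal arrays. The difference was 0.40 ± 0.0916 (SE), a 1.32-fold higher level (limma adjusted p = 0.0363). The call was lost without basal replicate 2 (adjusted p = 0.122), non-basal replicate 1 (0.078), non-basal replicate 2 (0.098) or non-basal replicate 3 (0.121). It was lost too without basal replicate 3 and non-basal replicate 1 together (0.0657) and when adjusted over all probe sets (0.0659).

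Slc4a5, the sodium-bicarbonate cotransporter NBCe2, had values of 6.84, 6.65 and 6.68 in the basal and 7.24, 7.03 and 7.04 in the non-basal arrays. Replicate 1 was the highest array of each fraction, and the fractions did not overlap. The difference was -0.38 ± 0.0917 (SE; limma adjusted p = 0.0444). This call was the nearest to the threshold and was lost with any 1 of the 6 arrays left out, at adjusted p of 0.0686 to 0.152. It was lost as well after quantile normalization (limma adjusted p = 0.054) and when adjusted over all probe sets (0.0783). After centring of the arrays the difference was -0.28 and did not pass (adjusted p = 0.114). Without basal replicate 3 and non-basal replicate 1 together it was -0.29 and did not pass (0.104).

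The carriers best known from the basolateral membrane of epithelia did not pass. Slc4a4, the electrogenic sodium-bicarbonate cotransporter NBCe1, had values of 8.70, 9.07 and 9.20 in the basal and 9.21, 9.18 and 8.97 in the non-basal arrays. The fractions overlapped, with basal replicate 1 the lowest array. Its difference was -0.13 ± 0.147 with a 95% interval of -0.49 to 0.23 (limma adjusted p = 0.601). Slc4a7, the electroneutral cotransporter NBCn1, averaged 10.32 ± 0.1 and 10.43 ± 0.104, with an interval of -0.33 to 0.09. Slc4a2, the widespread exchanger AE2, averaged 8.19 ± 0.232 and 8.02 ± 0.0738, with an interval of -0.13 to 0.49.

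The remaining 5 Slc4 transporters had small differences. Slc4a1, the exchanger of red blood cells, was at 5.87 and 6.01 with a difference of -0.15 (limma adjusted p = 0.333), and 0 of 5 measured red blood cell markers passed. Slc4a8 and Slc4a10, which couple sodium and bicarbonate transport mainly in neurons, differed by 0.07 and 0.06. Slc4a9 averaged 6.11 in both fractions, and Slc4a11, known from the corneal endothelium, 8.41 and 8.37. Slc4a11 had 1 deposited value, 8.37, in all 3 non-basal arrays, so its SD of 0 there is no measure of replicate spread. The adaptor gene Slc4a1ap averaged 7.12 ± 0.06 and 7.16 ± 0.0554 (adjusted p = 0.741).

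Among the 7 Slc12 genes only Slc12a4 passed. It encodes the potassium-chloride cotransporter KCC1, a widespread regulator of cell volume. Its values were 9.89, 9.998 and 9.81 in the basal and 9.18, 9.57 and 9.28 in the non-basal arrays. Every basal array was above every non-basal array, with non-basal replicate 2 the nearest. The difference was 0.56 ± 0.118 (SE), a 1.47-fold higher level (limma adjusted p = 0.0294). The call was lost without basal replicate 1 (adjusted p = 0.105), basal replicate 2 (0.117), non-basal replicate 1 (0.0571) or non-basal replicate 3 (0.119). It was lost too without basal replicate 3 and non-basal replicate 1 together (0.063) and when adjusted over all probe sets (0.0528). The difference itself stayed between 0.47 and 0.67 with 1 array left out.

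Slc12a2, the sodium-potassium-chloride cotransporter NKCC1 that loads secretory cells with chloride, had values of 9.29, 9.52 and 8.94 in the basal and 9.19, 9.20 and 9.12 in the non-basal arrays. The basal arrays spanned the non-basal ones on both sides, and the difference of 0.08 ± 0.15 had a 95% interval of -0.29 to 0.45. Slc12a7, the potassium-chloride cotransporter KCC4, averaged 8.80 ± 0.155 and 9.01 ± 0.131, with an interval of -0.48 to 0.06. The genes of the renal cotransporters NKCC2 (Slc12a1) and NCC (Slc12a3) differed by 0.17 and -0.28 (limma adjusted p = 0.414 and 0.204). Slc12a5, the neuronal cotransporter KCC2, and Slc12a8 differed by -0.01 and -0.11.

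None of the 6 Slc9 genes passed in limma, and 0 had an unadjusted p under 0.05. Slc9a3 encodes NHE3, the apical sodium-proton exchanger through which epididymal and other epithelia reabsorb sodium and secrete acid. Its values were 7.86, 7.79 and 7.67 in the basal and 9.04, 8.02 and 7.98 in the non-basal arrays. All basal arrays were below all non-basal arrays, but non-basal replicate 1 stood about 1 log2 unit above the other non-basal arrays. The difference was -0.57 ± 0.292 (SE; 95% interval -1.29 to 0.14; limma adjusted p = 0.248), and it was -0.23 without that array.

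Slc9a2, the apical exchanger NHE2, had basal values of 6.56, 6.93 and 7.66 and non-basal values of 7.57, 7.28 and 7.26. The fractions overlapped because basal replicate 3 was the highest of all 6 arrays. Its difference was -0.32 ± 0.28 (limma adjusted p = 0.489), and -0.62 without basal replicate 3 (adjusted p = 0.059). Slc9a7 and Slc9a8, exchangers of the Golgi membranes, differed by -0.27 (adjusted p = 0.206) and 0.02. Slc9a4 and Slc9a5 differed by 0.00 and -0.09.

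The array that led Slc26a7 and Slc9a3, non-basal replicate 1, was the highest of the 6 arrays in narrow and clear cell markers too. Their mean deviation there was 0.363, against -0.119 and -0.0646 in the other non-basal arrays and -0.204 to 0.106 in the basal arrays. Principal cell markers had mean deviations of 0.369, 0.204 and 0.165 in the non-basal arrays and of -0.657, -0.315 and 0.233 in the basal arrays. The last value, that of basal replicate 3, was the highest basal one, as it was for Slc9a2 and Slc26a3. RMA values have no zero, so no marker can be called absent, and the part of these cells in the values of the exchangers was not tested.

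**Figure D3:**
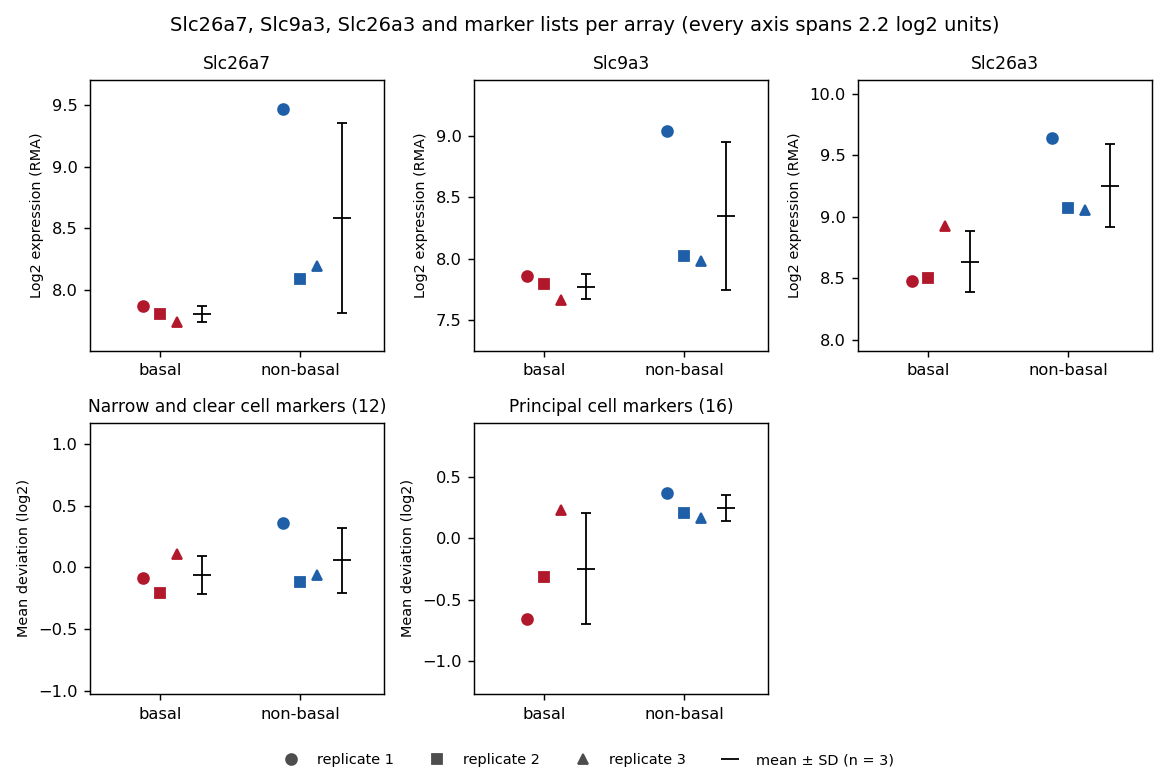
Log2 expression (RMA) per array of Slc26a7, Slc9a3 and Slc26a3, and the mean deviation of 12 narrow and clear cell markers and 16 principal cell markers from each gene's overall mean (log2); symbols are replicates, black bars the mean ± SD of 3 arrays. Non-basal replicate 1 is the highest array in all 5 panels, at 9.47 for Slc26a7 and 9.04 for Slc9a3.

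The 3 Slc8 genes encode exchangers that expel calcium in return for sodium, and 1 of them passed. Slc8a1, the exchanger NCX1 of heart, smooth muscle and many other tissues, had values of 7.40, 7.44 and 7.56 in the basal and 8.55, 8.46 and 8.47 in the non-basal arrays. The fractions were far apart, and within each the arrays lay within 0.2 of each other. The means of 7.47 ± 0.0811 (SD, n = 3) and 8.49 ± 0.051 (n = 3) differed by -1.03 ± 0.0707 (SE), a 2.04-fold lower level in the basal fraction (limma adjusted p = 0.00198). It was the smallest adjusted p of the 38 genes, and it lay between 0.00189 and 0.0211 with 1 array left out. Slc8a2, the exchanger NCX2 of brain, had a difference of -0.30 ± 0.121 (adjusted p = 0.159), with basal values of 6.77 to 6.95 just under non-basal values of 6.96 to 7.37. Slc8a3 was at 5.94 and 5.96, with 1 deposited value in all 3 basal arrays.

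In the list of other sodium, proton and calcium carriers, 0 of 17 genes were higher, 3 were lower and 14 did not pass in limma, with 7 at an unadjusted p under 0.05 (7.14% of all genes were lower, and 30% had such a p). The 3 that were lower, Slc24a3, Atp2b1 and Slc8b1, all move calcium. So do most genes of this list, and most of its calcium genes did not pass. Slc24a3, an exchanger of sodium for calcium and potassium, had values of 7.09, 7.37 and 7.76 in the basal and 9.60, 9.58 and 9.59 in the non-basal arrays. The non-basal arrays were almost equal, and the difference was -2.19 ± 0.169 (SE), or 4.55-fold lower (limma adjusted p = 0.00211). Atp2b1, a calcium pump of the plasma membrane, had a difference of -0.59 ± 0.076 (adjusted p = 0.00605). Slc8b1, the sodium-calcium exchanger of mitochondria, had -0.51 ± 0.0899 (adjusted p = 0.0159), a call lost without basal replicate 2 or non-basal replicate 3, at up to 0.0725. Atp2b3 and Atp2b4 had differences of -0.82 and -1.03 and did not pass (adjusted p = 0.0704 and 0.122).

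Smooth muscle and pericyte markers moved with these genes: 9 of 10 were lower, with mean deviations of -1.20 to -0.536 in the basal and 0.782 to 1.08 in the non-basal arrays. Their differences ran from -3.12 for Des, the muscle filament gene desmin, to -0.31 for Lmod1, which did not pass, with a median of -1.77. Most fibroblast, endothelial and lymphocyte markers were lower too. The part of muscle or of these other cells in the Slc8a1 and Slc24a3 differences was not tested.

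**Figure D4:**
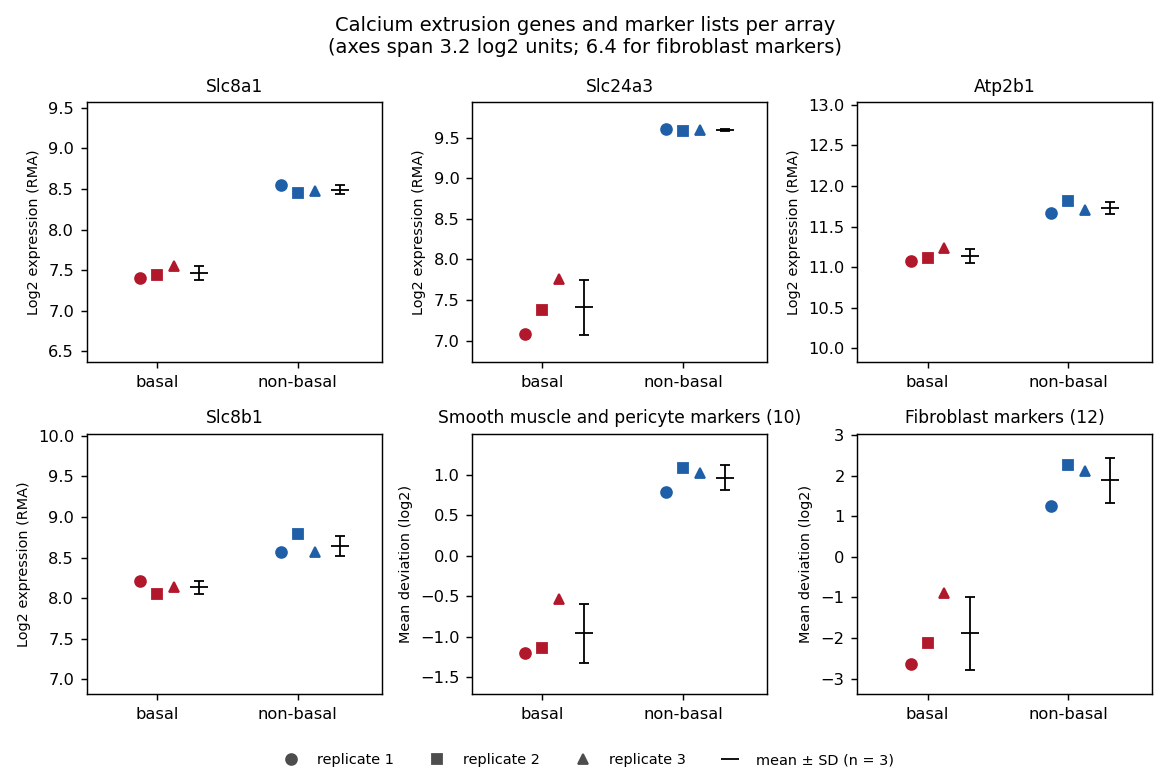
Log2 expression (RMA) per array of 4 genes that move calcium (Slc8a1, Slc24a3, Atp2b1, Slc8b1) and the mean deviation (log2) of 10 smooth muscle and pericyte markers and 12 fibroblast markers; symbols are replicates, black bars the mean ± SD of 3 arrays. All 6 panels have the 3 basal arrays below the 3 non-basal arrays, with Slc24a3 separated by more than Slc8a1.

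Genes that regulate these transporters or act beside them were taken from 6 lists with 68 symbols, of which 64 were measured. In this set of 64, the basal fraction had 5 genes called higher and 7 called lower, while the other 52 missed the threshold. The shares for the whole array were 7.71% higher and 7.14% lower, or 14.9% in either direction. The counts of the single lists below can be read beside the same shares. Whether the set or any list departs from them was not tested. In the list of kinases and scaffolds that control Slc12 cotransporters, 2 of 12 were higher and 0 lower. Oxsr1, a kinase that phosphorylates Slc12 proteins on orders of the WNK kinases, had values of 9.64, 9.66 and 9.47 in the basal and 9.16, 9.06 and 9.03 in the non-basal arrays. It was higher by 0.50 ± 0.0792 (SE; limma adjusted p = 0.0113), a call lost without basal replicate 1, basal replicate 2, non-basal replicate 2 or non-basal replicate 3, with adjusted p up to 0.0584. Nedd4l, a ubiquitin ligase that removes sodium channels from the membrane, was higher by 0.94 ± 0.112 (adjusted p = 0.0049), with values of 10.99 to 11.18 against 9.98 to 10.32. The related kinase gene Stk39 and the upstream kinase gene Wnk1 had differences of -0.39 and 0.25 and did not pass (adjusted p = 0.192 and 0.111).

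Carbonic anhydrases, which form the bicarbonate and protons these carriers move, went both ways, with 2 of 14 higher and 2 lower. Car12, a membrane-bound enzyme, had values of 11.01, 10.86 and 10.93 in the basal and 10.39, 9.95 and 9.86 in the non-basal arrays. All basal arrays were above, and the difference was 0.87 ± 0.149 (SE; limma adjusted p = 0.0147), lost without basal replicate 1, basal replicate 2, non-basal replicate 2 or non-basal replicate 3 at up to 0.0715. Car3, a cytosolic enzyme, was higher by 0.82 ± 0.174 (adjusted p = 0.0291), a call that held only without basal replicate 3 and otherwise reached 0.115 with 1 array left out. Car14, another membrane-bound enzyme, had a difference of -0.94 ± 0.147 (adjusted p = 0.0108), lost without basal replicate 1 at 0.0543. Car11, a relative without enzyme activity, had -1.21 ± 0.226 (adjusted p = 0.0195), lost without basal replicate 2, non-basal replicate 2 or non-basal replicate 3 at up to 0.095. Car2, the cytosolic enzyme of clear cells, differed by 0.47 and did not pass (adjusted p = 0.26).

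Of 6 chloride channel genes, 1 was higher and 1 was lower. Cftr, the chloride and bicarbonate channel mutated in cystic fibrosis, had values of 8.93, 9.22 and 9.66 in the basal and 8.90, 8.92 and 8.56 in the non-basal arrays. Basal replicate 1 was only just above the non-basal arrays, and the difference of 0.48 ± 0.205 (95% interval -0.02 to 0.98) did not pass (limma adjusted p = 0.182). Clca2, of the family of regulators of calcium-activated chloride channels, was 4.48-fold higher in the basal fraction (2.16 ± 0.225, adjusted p = 0.00353). Ano1, the calcium-activated chloride channel itself, was 2.44-fold lower (-1.29 ± 0.189, adjusted p = 0.00895), with values of 9.55, 9.54 and 10.19 against 11.13, 10.96 and 11.05. That call was lost without non-basal replicate 3, at 0.0551.

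Of 10 chaperones and scaffolds of exchangers none passed in limma, and 3 had an unadjusted p under 0.05, as did 30% of all genes. Ezr, which encodes ezrin and anchors apical transporters to actin, had the smallest of these p-values, with a difference of 0.43 ± 0.117 (adjusted p = 0.0611). Of 5 genes of bicarbonate and acid sensing 1 was lower, the proton-sensing receptor gene Gpr4. It had values of 7.08, 7.25 and 7.58 in the basal and 8.61, 8.59 and 8.60 in the non-basal arrays and a difference of -1.29 ± 0.133 (SE; limma adjusted p = 0.00349). Of 10 endothelial markers 9 were lower. The list had mean deviations of -0.852 to -0.492 in the basal and 0.602 to 0.796 in the non-basal arrays. Most fibroblast, smooth muscle and lymphocyte markers were lower too. The part of any of these cells in this difference was not tested. Adcy10, the bicarbonate-activated adenylyl cyclase of sperm, averaged 5.69 in the basal fraction and differed by -0.04.

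**Figure D5:**
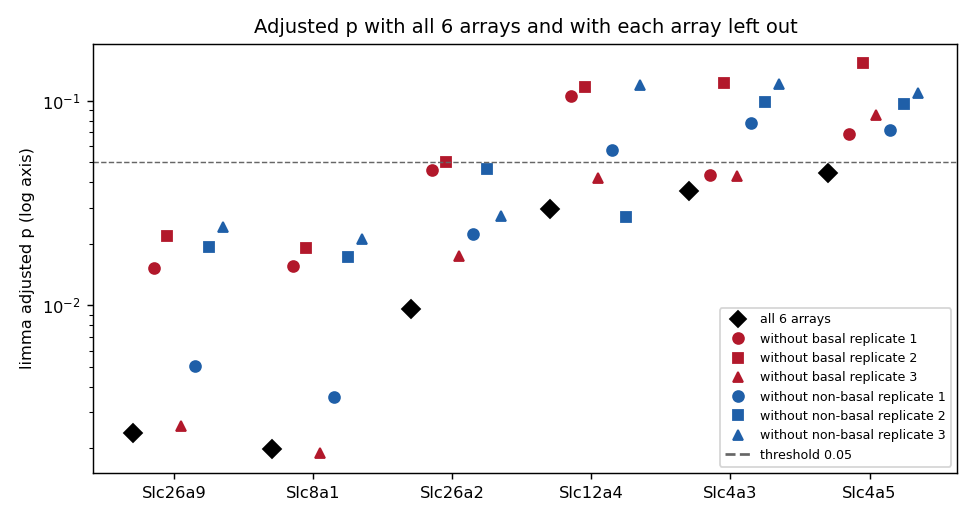
Limma adjusted p (log axis) of the 6 genes past the threshold with all 6 arrays (diamonds) and with each array left out (red for basal, blue for non-basal arrays, symbols by replicate); the dashed line is the threshold of 0.05. Slc26a9, Slc8a1 and Slc26a2 stay at or under the line throughout, Slc12a4 and Slc4a3 cross it without 4 of the 6 arrays each, and Slc4a5 without any of the 6.

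With single arrays left out, the calls of Slc26a9, Slc8a1 and Slc26a2 held in 6 of 6 such fits, the calls of Slc12a4 and Slc4a3 in 2 of 6 and that of Slc4a5 in 0 of 6. Of the 38 genes, 14 changed sign under at least 1 of the alternatives tried. The 6 genes that passed did not. In these 6 the fractions do not overlap, so leaving arrays out could not change the sign, and the comparison with the 14 says little.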

How the data were processed

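Total RNA of 3 basal and 3 non-basal fractions was hybridised to 6 arrays. The deposited values are log2 expression values which the authors computed with RMA (Affymetrix Expression Console), as the submitters' processing notes name it. Versions, probe set library and genome build are not given in the sources used here, so no coordinates are printed. RMA equalises the arrays, so a shift of most genes one way would be lost. It can give 1 value to several arrays: 6 of the 38 genes had the same deposited value in at least 3 arrays. The array number limits the precision.

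Of 36685 probe sets, 18511 carried 1 symbol in the platform annotation, 575 several and 17599 were unnamed. The probe set with the highest mean over the 6 arrays stood for a gene, giving 18166 genes. Each of the 38 genes had 1 probe set, and its symbol matched RefSeq's GRCr8 table by Entrez identifier. No dim gene was left out; 36 of the 38 had a mean of at least 5 in a fraction, and 24 of at least 7. Levels were compared between fractions, not between genes.

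Differences were fitted with lmFit and eBayes of limma 3.58.1 (R 4.3.3) over all genes, two-sided, without a block, and called at an adjusted p (Benjamini-Hochberg) under 0.05. The procedure was tested on simulated data with independent noise, which lack shifts shared by many genes of an array. Calls were required there only for changes larger than any found in the 38 genes. The members and lists were chosen with earlier results of these data known. All 38 genes were named, and of the regulators those that passed, Cftr and, chosen after their values were seen, a few that did not. A list's mean deviation is the mean, over its genes, of an array's value minus the gene's mean over the 6 arrays. A planned comparison of protein sequences was not made. Alternatives were other scalings, filters, variance models, probe set rules, thresholds, a replicate block and arrays left out.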

Additional observations from a re-analysis of the deposited data

How the results depend on the processing

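All 6 genes that passed kept their sign under every alternative. Leaving arrays out could not change it, since the fractions do not overlap in these genes. Slc26a9, Slc8a1 and Slc26a2 kept their call with any 1 array left out. The number of the 38 genes called higher (3) was 1 when adjusted over all probe sets and 1 at a threshold of 0.01. It was 1 too without basal array 3 and non-basal array 1 together. The number called lower (3) was 5 with array weights. Without both arrays it was 4, where Slc4a5 was lost and Slc26a3 and Slc26a10 entered. With 1 array left out, 1 to 3 were called higher and 2 to 3 lower. Over all genes, the 1401 higher and 1297 lower became 2166 and 1177 after centring of the arrays (64.8% of calls higher, against 51.9%), 2868 and 2323 with array weights, 491 and 556 at 0.01, and 2499 and 2124 without both arrays. With 1 array left out they ranged from 509 to 2068 and from 542 to 1607. Of the regulators and partners, 5 were higher, but 9 after centring, 16 with array weights, 9 at a threshold of 0.1, 2 at 0.01, 14 without both arrays and 2 to 8 with 1 array left out. The 7 that were lower became 4 at 0.01, 11 without both arrays and 4 to 9 with 1 array left out. The median difference of the 38 genes (-0.063) was 0.036 after centring, where that of all genes went from 0.00343 to 0.102, -0.094 and -0.123 over the 36 and 24 genes with a fraction mean of at least 5 and 7, and -0.081 to -0.028 with 1 array left out. Fewer genes or arrays enter the filtered fits and those with arrays left out. Centring moved the difference of every gene by the same amount, and the other thresholds were applied to the main fit. For the other shifts the cause was not tested.

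Same-numbered arrays of the fractions did not deviate together (correlations of 0.03, 0.04 and 0.03), so the numbers are not taken to pair them. With the replicate number as a block, 2 of the 38 genes were higher and 2 lower, Slc4a3 and Slc4a5 being lost (limma adjusted p = 0.0688 and 0.052), 5 regulators were higher and 6 lower, Slc8b1 being lost (adjusted p = 0.0628), and 982 and 1027 of all genes were called.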
